A study of Mus musculus with 24 samples.

Results

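The cells described here were liver T cells that carried transcripts of Ly49 receptors, compared between mice without CD1d and wild type (WT) mice. Ly49 receptors are lectin-like receptors of natural killer (NK) cells and of some T cells. The cells were chosen from single NK1.1+CD3e+ cells by their own counts. A cell was a member (Ly49+) when it had at least 10000 unique molecular identifiers (UMIs), each of which marks 1 captured transcript, and when its values of Klra1, Klra5, Klra7 and Klra9 summed to at least 0.5. A value was the UMIs of a gene per 10000 UMIs of the cell. Of 750 cells of that depth in both genotypes, 276 were Ly49+, namely 108 WT and 168 CD1d-deficient cells, out of 1735 cells in the whole series. Cd4 and Cd8a played no part in the choice.

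All mice were C57BL/6, aged 8 to 10 weeks, with no treatment in the labels. WT mice were purchased, CD1d-deficient mice (CD1d-/-) lack the molecule that presents lipids to NKT cells, and Jα18-deficient mice (Jα18-/-) lack a receptor gene segment that type I NKT cells need and serve here only as a reference. Livers were perfused, lymphocytes were enriched on a density gradient, NK1.1+CD3e+ cells were sorted, and single cells were picked by hand. The labels list 24 libraries, 8 per genotype, but the cells are named only by genotype and a number, so each genotype formed 1 pool and the comparison had no replicates. No p-value was therefore computed, and all intervals are exact 95% intervals that cover counting error only, not the spread between mice or libraries. Intervals of UMIs per cell and of ratios leave out the spread between cells as well. The number and the sex of the mice were not given in the sources used here, and purchased WT mice and mutant mice of another source cannot be told apart from the genotype.

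NKT cells in the narrow sense recognise lipids on CD1d and are known as type I, with a semi-invariant receptor, or type II, with diverse receptors. They make cytokines such as IL-4 and IFN-γ soon after stimulation. T cells that carry NK1.1 without depending on CD1d, often called NKT-like cells, share many receptors with NK cells. Most Ly49 receptors bind classical MHC class I molecules and restrain killing through inhibitory motifs, whereas activating NK receptors signal through small adaptors such as DAP12 (Tyrobp).

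Depth per cell was close between both groups of Ly49+ cells, with a median of 35036.5 UMIs (range 10423 to 209055) in WT and 33004 UMIs (10000 to 357568) in CD1d-deficient cells. To give each cell the same weight, every cell was thinned at random to 10000 UMIs, at which depth a median of 1547 and 1557.5 genes was detected. Levels below are thinned UMIs per cell, shares are cells with at least 1 thinned UMI unless stated, and a log2 ratio compares the summed UMIs per cell, CD1d-deficient over WT. Cd1d1, the targeted gene, had 21 UMIs in 4.63% of WT Ly49+ cells and 0 UMIs in 168 CD1d-deficient Ly49+ cells, so that up to 1.79% of cells could carry one by a limit of 3 cells. Transcripts of the sorted proteins were found in both pools. Cd3e, the sorted CD3 chain, was detected in 84.3% of WT and 75% of CD1d-deficient Ly49+ cells, at 3.26 and 2.27 UMIs per cell. Cd3d, another chain of the T cell receptor complex, was detected in 98.1% and 99.4% of WT and CD1d-deficient Ly49+ cells, Cd3g in 99.1% and 98.2%, and Klrb1c, which encodes NK1.1, in 90.7% and 88.7%. Zbtb16 (PLZF), the defining transcription factor of type I NKT cells, had only 23 and 10 UMIs, in 11.1% and 2.38% of cells. The B cell marker Ms4a1 was at 0 in both pools, but Cd79b had 7 UMIs in WT and 31 in CD1d-deficient Ly49+ cells. A UMI of any listed B cell marker was found in 5.56% of WT and 7.14% of CD1d-deficient Ly49+ cells. Of the B cell, erythroid and endothelial lists 0 genes reached the 50 UMIs needed for a ratio. Of 16 hepatocyte markers 2 did, Apoe and Trf. Among the 16, 14 had 0 UMIs in CD1d-deficient and 6 in WT Ly49+ cells. Of the sex-linked genes, Xist had 5 UMIs in WT and 42 in CD1d-deficient Ly49+ cells and the Y-linked Ddx3y was detected in 26.9% and 13.1% of them, and the part of the sex of the mice in the ratios was not tested.

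Ly49+ cells accounted for 20.7% of WT cells (108 of 523, 17.3 to 24.4%), 74.0% of CD1d-deficient cells (168 of 227, 67.8 to 79.6%) and 64.6% of Jα18-deficient cells (408 of 632, 60.7 to 68.3%). After thinning, with at least 1 UMI of the 4 genes as the criterion, these shares were 24.1%, 74.9% and 63.3%. These shares follow from the rule and are given as a description. The members nearest to it had summed values of 0.513 in WT and 0.528 in CD1d-deficient cells, and the closest cells outside had 0.498 and 0.493. Summed values below 2 were seen in 26 of 108 WT members and 19 of 168 CD1d-deficient members.

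Within the Ly49+ cells, the summed Ly49 value had a median of 9.79 in WT (quartiles 2.79 and 22.9, highest 75.4) and 13.2 in CD1d-deficient cells (5.36 and 25.1, highest 109). The distributions overlapped over nearly their whole range. The 4 receptor genes were not used equally. Klra5 (Ly49E) had 2.10 UMIs per cell in WT and 4.86 in CD1d-deficient cells, and was detected in 25% and 47.0% of cells. Klra7 (Ly49G) was the most abundant of the 4 in both pools, at 5.77 and 7.18 UMIs per cell. Klra9 (Ly49I) differed little, at 3.84 and 4.13 UMIs per cell, and Klra1 (Ly49A) went the other way, at 3.88 and 2.64. A single receptor gene of the 4 reached a value of 0.5 in 60 of 108 WT members and 76 of 168 CD1d-deficient members, and at least 2 genes did so in most of the others. In the Jα18-deficient pool 62 of 408 members had no single gene at that value, and many of its cells lay near the threshold. Klra3 (Ly49C), not part of the rule, had 0.685 and 0.5 UMIs per cell. Ly49 genes are near-identical over long stretches, so the division of UMIs among them is uncertain.

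**Figure D1:**
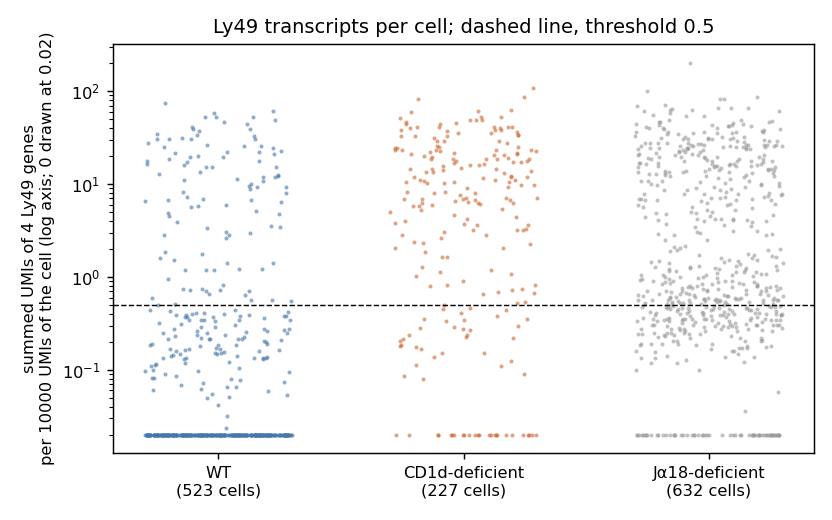
Summed value of Klra1, Klra5, Klra7 and Klra9 in each cell of at least 10000 UMIs, per pool, with the threshold of 0.5 that chose the Ly49+ cells. The median of the Ly49+ cells was 9.79 in WT and 13.2 in CD1d-deficient cells, and most WT cells lay below the threshold.

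Coreceptors were not used by the rule. Cd8a, a chain of the CD8 coreceptor, reached a value of 0.5 in 30 of 108 WT Ly49+ cells (27.8%, 19.6 to 37.2%) and in 85 of 168 CD1d-deficient Ly49+ cells (50.6%, 42.8 to 58.4%). Cd4 reached it in 19 of 108 WT cells (17.6%, 10.9 to 26.1%) and in 3 of 168 CD1d-deficient cells (1.79%, 0.370 to 5.13%). Neither coreceptor reached a value of 0.5 in 57.4% (47.5 to 66.9%) and 48.2% (40.5 to 56.0%) of Ly49+ cells. Some cells below that value still held UMIs of Cd8a. Jα18-deficient Ly49+ cells had Cd8a at that value in 24.8%, Cd4 in 9.07% and neither in 66.7%. For Cd8a they thus lay nearer to WT and for Cd4 between both pools. Cd8b1, the β chain of conventional CD8 T cells, was detected in only 3.70% of WT and 2.98% of CD1d-deficient Ly49+ cells. Among the Cd8a+ cells themselves it was detected in 13.3% and 3.53%, so most of them carried Cd8a without a UMI of Cd8b1 at this depth. The Ly49- cells of the same pools had Cd8a in 1.45% (WT) and 35.6% (CD1d-deficient) of cells and Cd4 in 30.8% and 1.69%, so that both coreceptors differed between the genotypes outside the Ly49+ cells too.

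**Figure D2:**
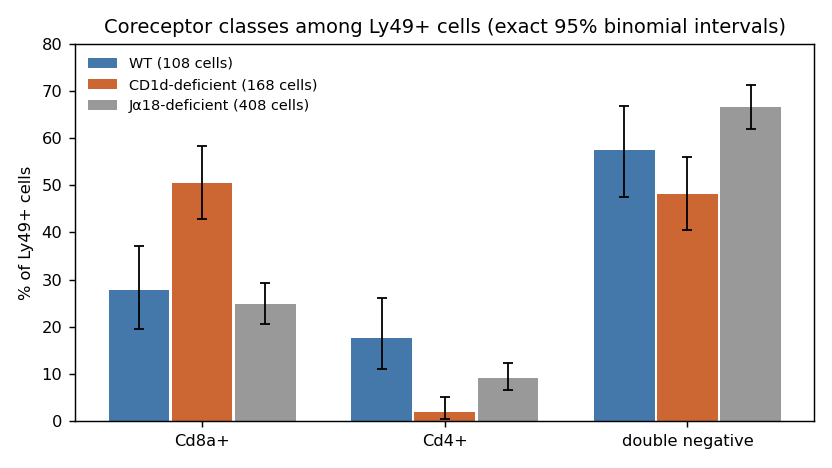
Share of Ly49+ cells (percent) with Cd8a, with Cd4 and with neither at a value of 0.5 or more, per pool, with exact 95% intervals for counting error. Cd8a was found in 27.8% of WT and 50.6% of CD1d-deficient Ly49+ cells, and Cd4 in 17.6% and 1.79%.

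Across all genes, 5536 had at least 50 thinned UMIs in both groups of Ly49+ cells together. Of these, 497 (8.98%) were at least 2-fold higher in CD1d-deficient cells and 376 (6.79%) at least 2-fold lower. The median log2 ratio of all genes was 0.04, and 2915 of the 5536 had a ratio above 0. The minimum of 50 UMIs summed 168 CD1d-deficient and 108 WT cells. A gene of few UMIs thus entered more easily when it was high in the CD1d-deficient pool, and the shares carry that choice. Each list below is to be read against these shares. Because Cd8a+ cells made up different shares of the pools, the medians of the main lists and the ratios of selected genes are also given within Cd8a+ cells (30 WT, 85 CD1d-deficient) and within Cd8a- cells (78 and 83). Within Cd8a+ cells 13% of genes were 2-fold higher and 8.17% lower, and within Cd8a- cells 10.6% and 8.76%.

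**Figure D3:**
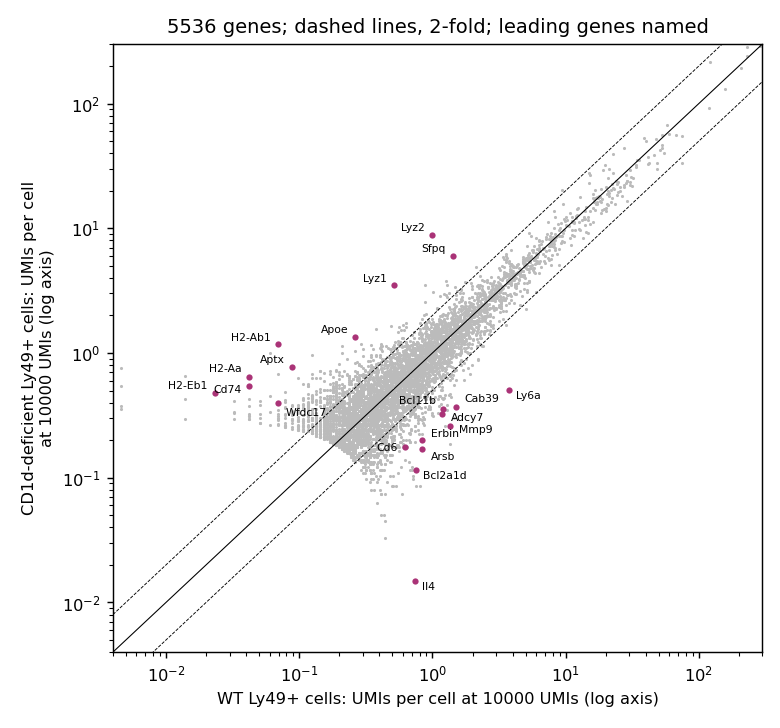
UMIs per cell of each gene tested in WT (horizontal, log scale) and CD1d-deficient (vertical, log scale) Ly49+ cells, after thinning to 10000 UMIs, with 0.5 UMI added to each sum. Most genes lie near the line of equal levels. Named points are the 10 highest and 10 lowest ratios among genes seen in 20% or more of the cells of either pool, with Il4 and Ly6a lowest and H2-Eb1 highest.

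Most listed genes of CD1d-dependent NKT cells were lower in CD1d-deficient Ly49+ cells. Of 11 listed genes tested, 7 were at least 2-fold lower and 0 at least 2-fold higher. The median log2 ratio was -1.39, with -0.14 in Cd8a+ cells and -1.42 in Cd8a- cells. The study named many of these genes from the same cells and the others were added with earlier results known, so this count is not independent evidence of the direction. Il4, which encodes the type 2 cytokine IL-4, differed most. It had 79 UMIs in 108 WT cells (0.731 per cell, 0.579 to 0.912) and 2 UMIs in 168 CD1d-deficient cells (0.0119 per cell, 0.00144 to 0.0430), a log2 ratio of -5.63 (interval -9.01 to -4.04). WT cells ranged from 0 to 11 UMIs of Il4, and no CD1d-deficient cell had more than 1. At least 1 UMI of Il4 was found in 20.4% (13.2 to 29.2%) and 1.19% (0.144 to 4.23%) of cells, or 30.6% and 5.36% before thinning. In Cd8a- cells the share was 21.8% in WT, and 0 of 83 CD1d-deficient cells had a UMI at the thinned depth, where a limit of 3 cells allows up to 3.61% with a UMI at that depth. Jα18-deficient Ly49+ cells had 0.569 UMIs of Il4 per cell, nearer to WT.

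The gene lies on chromosome 11 from 53416484 to 53432171 (NCBIM37, mm9). Its promoter is shown because Il4 had the lowest ratio of the genes seen in 20% or more of the cells of either pool. Il4 entered that set through WT cells only, at 20.4% against 1.19% in CD1d-deficient cells. The 250 bases before its start are at chr11:53618666-53618915 on the minus strand (RefSeq, GRCm38.p6), printed 5′ to 3′ with capitals for GGAAA on either strand (TTTCC on the other), the core bound by NFAT factors.
Il4: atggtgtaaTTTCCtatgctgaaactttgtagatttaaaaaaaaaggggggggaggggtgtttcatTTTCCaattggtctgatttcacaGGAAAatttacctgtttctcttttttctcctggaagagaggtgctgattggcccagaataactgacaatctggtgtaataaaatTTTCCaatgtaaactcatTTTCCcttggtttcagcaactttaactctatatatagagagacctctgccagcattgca
The letters occurred 5 times in this window, and 55.6% of 32851 promoters of the same length held them at least once, so a match is a description and not a site.

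Ly6a (Sca-1), a surface protein of activated and memory T cells, had 3.73 UMIs per cell in WT (3.38 to 4.11) and 0.5 in CD1d-deficient cells (0.399 to 0.619), a log2 ratio of -2.89 (-3.26 to -2.56). It was detected in 65.7% of WT and 14.3% of CD1d-deficient Ly49+ cells, or 93.5% and 31.0% before thinning, and Jα18-deficient Ly49+ cells again had a level near WT, 3.58 UMIs per cell. Single cells reached 42 UMIs in WT and 18 in CD1d-deficient cells. The groups overlapped, as many WT cells also had few UMIs of Ly6a. The direction was the same within Cd8a+ cells (1.03 and 0.353 UMIs per cell) and within Cd8a- cells (4.77 and 0.651).

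Receptors and ligands of T cell help followed. Cd28, the main costimulatory receptor of T cells, had 1.72 and 0.601 UMIs per cell in 44.4% and 17.3% of WT and CD1d-deficient Ly49+ cells, a log2 ratio of -1.52 (-1.88 to -1.16). Icos, another receptor of the same family, had 0.769 and 0.310 UMIs per cell. Cd40lg, the ligand through which T cells activate CD40 on antigen-presenting cells, had 0.954 and 0.363. Cd6, a receptor of T cell adhesion, had 0.620 and 0.173. Ccr2, a chemokine receptor for inflamed tissue, had 1.32 and 0.458, but its shares of cells were 32.4% and 26.8%, so that fewer UMIs per positive cell accounted for most of its ratio. Within Cd8a- cells the log2 ratios of Cd28 and Icos were -1.42 and -1.71, and within Cd8a+ cells they were -0.29 and -0.14. Ccr2 had a log2 ratio of -1.66 in Cd8a- cells and 0.43 in Cd8a+ cells, where 30 WT cells had 0.267 UMIs per cell. The other 4 genes of the list lay within 2-fold, namely Lat (-0.21), Cxcr6 (-0.18), Rora (-0.05) and Maf (0.23), of which Maf drew 50.9% of its WT UMIs from 1 cell.

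Among receptors and adaptors of NK cells, Ncr1 and Fcgr3 were at least 2-fold higher in CD1d-deficient Ly49+ cells. Of 11 tested, 9 had a ratio above 0 (2915 of 5536 over all genes), 2 were at least 2-fold higher and 1 at least 2-fold lower. The median log2 ratio was 0.72, with 0.30 in Cd8a+ cells and 0.96 in Cd8a- cells. Ncr1, which encodes the activating receptor NKp46, had 1.27 UMIs per cell in WT (1.06 to 1.5) and 3.78 in CD1d-deficient cells (3.49 to 4.09), a log2 ratio of 1.57 (1.31 to 1.85), and was detected in 21.3% and 48.8% of cells. Its highest cell had 17 UMIs in WT and 33 in CD1d-deficient cells, while the median cell had 0 in both. Jα18-deficient Ly49+ cells lay in between, at 1.87 UMIs per cell and 30.4% of cells.

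The adaptors Tyrobp and Fcer1g lay within 2-fold in sum. Tyrobp, which encodes DAP12, had 15.0 and 27.5 UMIs per cell, a log2 ratio of 0.88 (0.80 to 0.96), with a lowest, median and highest cell of 0, 1 and 146 UMIs in WT and 0, 21.5 and 94 in CD1d-deficient cells. It was detected in 63.0% of WT (53.1 to 72.1%) and 97.0% of CD1d-deficient Ly49+ cells (93.2 to 99%). Fcer1g, the γ chain that pairs with NKp46 and Fc receptors, had 19.7 and 32.3 UMIs per cell, with medians of 5 and 30, and was detected in 75% and 98.8%. Cd7, a surface protein of T and NK cells, had medians of 10 and 42 and was detected in 80.6% and 98.8%. The median WT cell thus lay far below the median CD1d-deficient cell for all 3 genes, although the highest WT cells reached or passed the highest CD1d-deficient cells for Tyrobp. Tyrobp and Fcer1g are also abundant in myeloid cells, and in the same cells the myeloid gene Lyz2 was detected in 33.3% and 91.7% and H2-Ab1 in 5.56% and 55.4%. Their part in these shares was not tested.

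Among the other NK receptors, Cd160 had 8.14 and 13.8 UMIs per cell and Cd244 (2B4) 0.972 and 1.48. Fcgr3 (CD16) had a log2 ratio of 1.97 on 28 and 173 UMIs, of which 1 CD1d-deficient cell held 52. Outside the Ly49+ cells Fcgr3 was also detected more often, in 2.17% of Ly49- WT and 13.6% of Ly49- CD1d-deficient cells. The part of myeloid RNA in this ratio was not tested. Hcst (DAP10), the partner of NKG2D, had a log2 ratio of -0.01. Sh2d1a (SAP), an adaptor of SLAM receptors needed for NKT cell development, was the gene that went 2-fold the other way, at 1.19 and 0.506 UMIs per cell. Of 11 other Klr genes tested, 10 had a ratio above 0, and the median was 0.54, with 0.01 in Cd8a+ cells and 0.69 in Cd8a- cells. The most abundant of them, Klrd1 (CD94), had 12.9 and 17.7 UMIs per cell and its partner Klrc1 (NKG2A) 8.31 and 12.2. Klrb1b, Klrc2 and Klri2 passed 2-fold on 53, 58 and 54 UMIs in CD1d-deficient cells and 9, 18 and 16 in WT cells. Klrg1 passed 2-fold downward, on 46 UMIs in WT, of which 71.7% came from 1 cell.

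Cytotoxic granule genes had a median log2 ratio of 0.60 over 11 genes tested, of which 9 had a ratio above 0 and 0 passed 2-fold in either direction. The median was 0.05 in Cd8a+ cells and 0.50 in Cd8a- cells. Gzma (granzyme A) had 22.5 UMIs per cell in WT and 39.2 in CD1d-deficient cells, a log2 ratio of 0.80 (0.73 to 0.87), and was detected in 47.2% and 79.2% of cells. Gzmb (granzyme B) had 19.1 and 29.2, with medians of 3 and 23 UMIs, and was detected in 61.1% and 88.1%. Prf1 (perforin), the pore through which granzymes enter target cells, had 0.620 and 1.05. Nkg7, a granule membrane protein, was detected in 100% of the Ly49+ cells of both pools, with a log2 ratio of 0.32.

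Of 12 cytokine and chemokine genes tested, 1 was at least 2-fold higher (Ccl3) and 3 were at least 2-fold lower (Il4, Cd40lg and Ifng). Ccl5, which attracts T cells and was the most abundant gene of its list, had 121 UMIs per cell in WT (119 to 123) and 214 in CD1d-deficient cells (212 to 216). Its median cell had 76 and 200 UMIs. Xcl1, which attracts cross-presenting dendritic cells, had 9.62 and 15.6, and Ccl3 had 0.630 and 1.74, a log2 ratio of 1.46 (1.08 to 1.87). Ccl4, the neighbour of Ccl3 on chromosome 11, differed little, with a log2 ratio of 0.23 (0.05 to 0.41). Ifng, the signature cytokine of NK cells and of type 1 responses, had 1.72 UMIs per cell in WT (1.48 to 1.99) and 0.827 in CD1d-deficient cells (0.696 to 0.977), and was detected in 38.9% and 17.9%. Ifng had nearly the same ratio in Cd8a+ cells (-1.03) and Cd8a- cells (-0.99).

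Granule, adaptor and chemokine genes were set side by side within the Cd8a- and the Cd8a+ cells. Gzmb had 10.2 UMIs per cell in WT and 21.8 in CD1d-deficient Cd8a- cells, and 42.2 and 36.4 in Cd8a+ cells. Ccl5 had 88.3 and 207 in Cd8a- cells, and 207 and 221 in Cd8a+ cells. Fcer1g had 12.7 and 25 in Cd8a- cells, and 37.9 and 39.4 in Cd8a+ cells. For these 3 genes the WT Cd8a- cells had the lowest level of the 4 groups. Ncr1 was lowest in the WT Cd8a- cells too and differed in both classes. It had 0.923 and 3.55 UMIs per cell in Cd8a- and 2.17 and 4 in Cd8a+ cells. Whether the contrast differed between the classes was not tested, as there are no replicates. The WT Cd8a- cells also had lower Ly49 values (median 7.0, against 14.5 in CD1d-deficient Cd8a- cells). The part of these values in the ratios of Cd8a- cells was not tested. With all Ly49+ cells at a summed value of 2 or more, log2 ratios were 0.65 for Tyrobp, 0.69 for Gzma, 0.57 for Ccl5 and 1.35 for Ncr1. That setting held both Cd8a classes, with Cd8a+ cells at 32.9% in WT and 51.7% in CD1d-deficient cells, so it does not describe the Cd8a- cells alone.

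**Figure D4:**
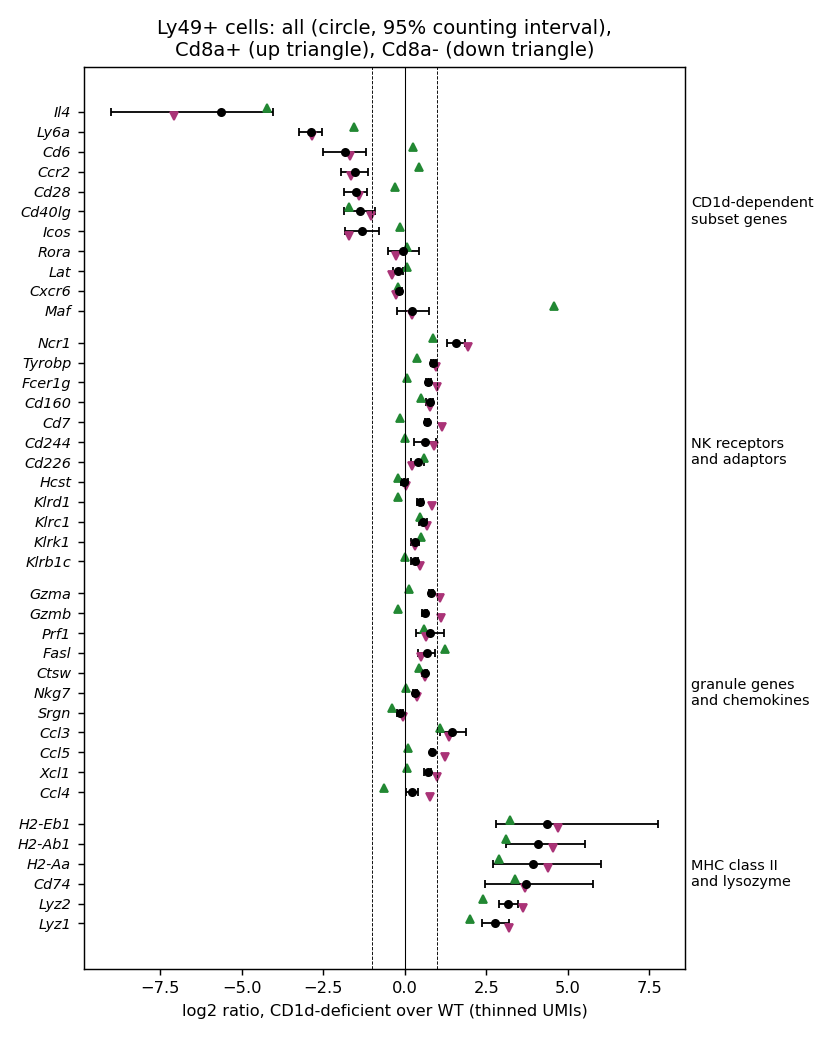
Log2 ratio (CD1d-deficient over WT) of the listed genes in all Ly49+ cells, in Cd8a+ cells and in Cd8a- cells, with exact 95% counting intervals for all Ly49+ cells. Ly6a and Cd28 lie below 0 in each set, while Gzmb and Ccl5 lie near 0 in Cd8a+ cells and near or above 1 in Cd8a- cells.

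Adhesion and homing receptors differed in both directions. Of 15 tested, 5 were at least 2-fold higher and 1, Ccr2, at least 2-fold lower. Itga1, the α1 integrin found on liver-resident lymphocytes, had 0.824 and 1.86 UMIs per cell in 28.7% and 39.3% of cells. Itgax (CD11c), an integrin chain, was detected in 10.2% and 32.7% of cells. Itga2 (CD49b) and S1pr1, the receptor for exit into blood, rested on 22 and 20 UMIs in WT. Cxcr6, which holds lymphocytes in the liver sinusoids, lay at -0.18 and Cxcr3 at -0.13, both within 2-fold.

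Among 14 costimulatory and inhibitory receptors tested, 4 were at least 2-fold lower (Cd6, Cd28, Icos and Slamf6) and 2 higher. Lag3, an inhibitory receptor, was detected in 1.85% of WT (0.225 to 6.53%) and 16.1% of CD1d-deficient Ly49+ cells (10.9 to 22.5%), on 4 and 49 UMIs, and Tnfrsf9 (4-1BB) had a log2 ratio of 1.20. Of 11 naive and memory genes tested, 4 were at least 2-fold lower. These were Ly6a, Satb1 (-1.43), Ly6c1 (-1.35) and Il7r, the receptor of the survival cytokine IL-7, with 5.01 and 2.26 UMIs per cell in 46.3% and 24.4% of cells. Bach2 was higher, on 7 and 50 UMIs. Tcf7, a factor of naive and central memory cells, lay within 2-fold (0.25).

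The lineage transcription factors and T cell receptor genes that could be compared lay within 2-fold. Of 11 factors tested, out of 16 with a row, 0 passed 2-fold, from Ikzf2 at -0.66 to Id3 at 0.80. Zbtb16 had too few UMIs for this comparison, at 0.213 per cell in WT (0.135 to 0.320) and 0.0595 in CD1d-deficient cells (0.0285 to 0.109). Tbx21 (T-bet), the factor of type 1 responses, lay at -0.02 and Gata3, the factor of type 2 responses, at -0.63. Of 12 receptor complex and signalling genes, 0 passed 2-fold, with Lck at 0.60, Zap70 at 0.56 and Lat at -0.21. The classical MHC class I genes H2-D1 (0.10) and H2-K1 (-0.06), whose products are ligands of Ly49 receptors, and B2m (-0.27) were in every Ly49+ cell at like levels. Cell cycle genes (6 tested), glycolysis genes (12 tested) and cytokine receptors (10 tested) were within 2-fold too, except Il15ra at -2.32 on 59 and 18 UMIs. Of 10 heat shock genes, only Hspa1a passed 2-fold, on 5 and 46 UMIs, and Hsp90ab1, the most abundant, lay at -0.54.

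Of 18 interferon-stimulated genes tested, 7 were at least 2-fold lower and 1, Isg20, at least 2-fold higher, with a median log2 ratio of -0.47. Bst2 (tetherin) had a log2 ratio of -1.16 and Ifi27l2a -1.09, while Usp18, Ifit1 and Isg15 were lower on 38 to 47 UMIs in WT. Irf1 (0.05), Ifi47 (0.02) and Rtp4 (0.38) lay within 2-fold and above 0, and Ifi27l2a lay at 0.08 in Cd8a+ cells. Of 12 immediate early genes, which answer cell handling as well as stimulation, 1 passed 2-fold. This was Jun, with 1.21 and 2.99 UMIs per cell. S100a6, a calcium-binding protein of effector lymphocytes, had 9.38 and 20.1 UMIs per cell (log2 ratio 1.10, 1.0 to 1.20), with medians of 5.5 and 18.5.

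Among the 2701 genes seen in 20% or more of the cells of either pool, 110 (4.07%) were at least 2-fold higher and 87 (3.22%) at least 2-fold lower. A gene could enter this set only through the pool where it was high. Il4 did so through WT, and H2-Eb1, H2-Aa and Cd74 through the CD1d-deficient pool. These shares and the genes at both ends are therefore a description only. After Il4 and Ly6a, the lowest were Bcl2a1d, a survival gene of the Bcl-2 family (-2.70), Mmp9, a matrix protease (-2.40), and Arsb, a lysosomal sulfatase (-2.30). Bcl11b, a factor that keeps T cell identity, was the last of the 10 lowest at -1.77, with 1.20 and 0.351 UMIs per cell in 33.3% and 13.1% of cells. Mmp9 was detected in 34.3% and 10.7% of cells, and in 42.3% and 12% of Cd8a- cells. Erbin (-2.07), Cab39 (-2.03), Adcy7 (-1.86) and Cd6 (-1.83) lay between Arsb and Bcl11b. Bcl2a1d has near-identical paralogs, and 1 WT cell held 73 of the 161 UMIs of Cab39.

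The 10 highest were headed by genes of antigen presentation and of myeloid cells. H2-Eb1, a chain of MHC class II, had 2 UMIs in WT and 80 in CD1d-deficient Ly49+ cells, a log2 ratio of 4.37 (2.78 to 7.75). H2-Ab1 had 7 and 197 UMIs, in 5.56% and 55.4% of cells, and H2-Aa 4 and 107, in 3.70% and 36.9%. Cd74, the invariant chain that escorts MHC class II, had 4 and 91. Lyz2, the lysozyme of macrophages and monocytes, had 0.981 UMIs per cell in WT (0.804 to 1.19) and 8.83 in CD1d-deficient cells (8.38 to 9.29), and was detected in 33.3% and 91.7%. Lyz1, its close paralog, was detected in 20.4% and 74.4%, and Apoe, a lipid carrier of macrophages and hepatocytes, in 18.5% and 63.7%. Aptx (3.13), Wfdc17 (2.51) and Sfpq (2.06) complete the list, Sfpq with 1.43 and 5.98 UMIs per cell.

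Promoters of MHC class II genes carry a conserved module that includes a CCAAT box on either strand, bound by NF-Y, and those of H2-Aa and H2-Eb1 are shown because these genes had ratios among the highest. Both sequences are the 250 bases before the start from RefSeq (GRCm38.p6), printed 5′ to 3′, H2-Aa at chr17:34287824-34288073 on the minus strand and H2-Eb1 at chr17:34305617-34305866 on the plus strand, with capitals for CCAAT or ATTGG.
H2-Aa: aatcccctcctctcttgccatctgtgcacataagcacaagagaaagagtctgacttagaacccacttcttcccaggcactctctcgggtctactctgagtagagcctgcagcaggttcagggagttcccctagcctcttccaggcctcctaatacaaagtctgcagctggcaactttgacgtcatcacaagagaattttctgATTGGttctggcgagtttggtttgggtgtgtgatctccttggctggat
H2-Eb1: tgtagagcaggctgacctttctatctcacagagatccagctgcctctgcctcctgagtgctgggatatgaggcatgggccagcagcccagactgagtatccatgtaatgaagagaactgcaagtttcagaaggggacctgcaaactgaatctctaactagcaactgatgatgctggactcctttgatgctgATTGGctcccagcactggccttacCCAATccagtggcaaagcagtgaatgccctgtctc
H2-Aa held 1 match, 48 bases before the start, and H2-Eb1 held 2, at 59 and 35 bases. Of all 32851 promoters of this length, 33.8% held at least 1 match.

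The same genes were found outside the Ly49+ cells. In the Ly49- cells of the CD1d-deficient pool, Lyz2 was detected in 94.9%, Lyz1 in 86.4%, H2-Ab1 in 47.5% and Cd74 in 27.1% of 59 cells, and in Ly49- WT cells in 28.9%, 22.7%, 7.95% and 5.06% of 415 cells. H2-Ab1 had 0.133 UMIs per UMI of Lyz2 in CD1d-deficient Ly49+ cells and 0.137 in Ly49- cells. The same ratio was 0.0660 and 0.111 in WT and 0.905 and 1.25 in Jα18-deficient cells. Sfpq had the same pattern, with 36.6% of Ly49- WT cells and 84.7% of Ly49- CD1d-deficient cells. The 15 myeloid markers summed to 0 to 25 UMIs per cell in WT Ly49+ cells (median 2) and 0 to 186 in CD1d-deficient Ly49+ cells (median 10.5). Of the 15, 7 were tested, 6 were at least 2-fold higher and 0 lower. The remaining tested marker, Cst3, was level, at 2.07 UMIs per cell in WT and 2.09 in CD1d-deficient Ly49+ cells. Among defining macrophage markers, Csf1r, the receptor of the growth factor M-CSF, was detected in 1.85% and 11.3% of WT and CD1d-deficient Ly49+ cells, or 10.2% and 31.0% before thinning. Cd68 was detected in 3.70% and 13.1%, or 13.9% and 44.6% before thinning. The Kupffer cell markers Clec4f and Fcna and the complement genes C1qa, C1qb and C1qc were in at most 4.17% of cells of either pool, with Fcna and C1qc at 0 in both. The part of myeloid RNA in the other ratios of the CD1d-deficient cells was not tested.

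**Figure D5:**
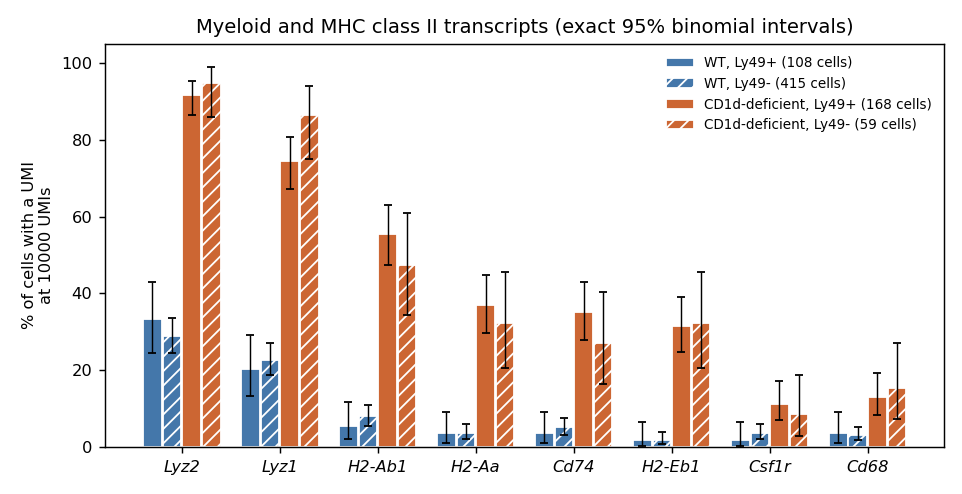
Share of cells (percent) with at least 1 thinned UMI of myeloid and MHC class II genes in the Ly49+ and the Ly49- cells of the WT and CD1d-deficient pools, with exact 95% intervals. Lyz2 was found in 91.7% of Ly49+ and 94.9% of Ly49- CD1d-deficient cells, against 33.3% and 28.9% in WT.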

How the data were processed

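NK1.1+CD3e+ liver cells of 3 genotypes were sequenced singly. Per the labels and the methods, the authors used Cutadapt 1.15 for trimming and TopHat2 2.0.12 for alignment to mm9 transcripts, collapsed duplicates by UMI and counted with HTSeq 0.10.0. The deposited counts are whole UMIs per gene and cell, not normalized, for 24447 genes in 1735 cells. The methods state that cells under 10000 transcripts were removed, but 100 WT, 160 CD1d-deficient and 93 Jα18-deficient cells of the matrix are below that depth, and they were left out here. No doublet step is given in the sources used here and none was applied, as cells were picked by hand. No 2 cells had the same values. T cell receptor segments and spike-ins have no rows in the table. Some members of the gene lists are counted but not reported by name here.

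The cells and gene lists were chosen with earlier results of these data known. No test was run, since each genotype is 1 pool. Each cell was thinned without replacement to 10000 UMIs (seed 20) and summed per pool, with a prior of 0.5 UMI in each sum. Genes with at least 50 thinned UMIs in the pair were compared, and 2-fold was the criterion for calling a difference. Shares had exact Clopper-Pearson intervals, sums exact Poisson intervals and ratios exact conditional binomial intervals, all at 95%, and a count of 0 was given a limit of 3. The genes named were members of the lists, by size of ratio and by UMIs, and the 10 highest and 10 lowest ratios among genes seen in 20% or more of the cells of either pool. Thinning and ratios were checked on simulated counts. These used a single mean profile for all cells, with some genes changed by set folds in the CD1d-deficient cells. They held no spread between cells or libraries beyond depth and counting, so they cannot show how reliable a 2-fold call is here. Alternatives were sums of all UMIs, means over cells, another seed, other minimum counts, a larger prior, TMM factors from edgeR 4.0.16, other thresholds for cells, and each Cd8a class alone. Positions come from NCBIM37, and promoter sequences from RefSeq on GRCm38.p6, where 3 genes were looked up and printed. Python 3.11.15, numpy 2.4.6, scipy 1.17.1, pandas 2.3.3, matplotlib 3.10.9 and R 4.3.3 were used.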

Additional observations from a re-analysis of the deposited data

Results flagged for a closer look

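Cells below 10000 UMIs, which the comparison did not use, carried Ly49 transcripts more often in both deficient pools than in the WT pool. At least 1 UMI of Klra1, Klra5, Klra7 or Klra9 was found in 77.5% of 160 CD1d-deficient cells of that depth (124 cells, exact 95% interval 70.2 to 83.7%) and in 19% of 100 WT cells (19 cells, 11.8 to 28.1%), and 75.3% of 93 Jα18-deficient cells had one. It was flagged as a signal in data outside the comparison that exceeded the WT level. The median depth of these cells was 4508.5 UMIs in WT, 5556 in CD1d-deficient and 6333 in Jα18-deficient cells, and Lyz2 was found in 26%, 56.2% and 12.9% of them.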

How the results depend on the processing

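Of 61 listed or leading genes past 2-fold, all 61 kept their direction with means over cells (55 still past 2-fold), with a summed Ly49 value of at least 2 (51 past 2-fold) and with cells of at least 20000 UMIs (48). With sums of all UMIs, where deep cells weigh more, 60 kept it and 49 passed 2-fold, and the log2 ratio of Gbp2 came to 0.000499. Without the highest cell of each gene and pool, an alternative chosen after seeing the data, 61 kept it. In Cd8a+ cells alone 51 of the genes could be compared, 47 kept their direction and 31 passed 2-fold, and in Cd8a- cells alone these were 60, 59 and 52. In Cd8a+ cells Ccr2 came to 0.43, Ly6c1 to 0.16, Ifi27l2a to 0.0825 and Cab39 to 0.19, and in Cd8a- cells alone Klri2 came to -0.29. The cause was not tested. The 61 genes were chosen for passing 2-fold in these same cells, so a kept direction is no independent support. Of all 497 higher and 376 lower genes, 345 and 238 were also called at a summed value of at least 2 (5047 genes tested). With cells of at least 20000 UMIs these were 278 and 167 (4576 tested), and with sums of all UMIs 312 and 222 (5536 tested).

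Ly49+ cells made up 15.7% of WT and 65.6% of CD1d-deficient cells at a summed value of at least 2. At 20000 UMIs or more these shares were 16.5% and 70.5%. With coreceptors at 1 or more, double negative cells made up 63.9% of WT and 56.5% of CD1d-deficient Ly49+ cells. Cd8a+ cells made up 25% and 42.9% at that value. With a minimum of 20 UMIs, 975 genes were 2-fold higher and 790 lower, and with 200 UMIs 76 and 40. Another seed gave 511 and 370, of which 348 and 253 were shared, so a call near 2-fold on few UMIs depends on the draw. No paired analysis was possible because the cells carry no replicate number. Leaving out a library was not possible for the same reason.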
